A study of Xenopus laevis with 6 samples.

Results

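Retinoic acid genes were represented by 18 of the 42549 genes of the deposited table. They were taken by name, as the .L and .S homeologs of aldh1a2, aldh1a3, cyp26a1, cyp26c1, crabp2, dhrs3, rdh10, rara, rarb and rarg. These 10 gene names could give 20 rows, and rarg.L and cyp26c1.S, which have no row among those analysed, were not analysed here. Poly(A) RNA came from wild type Xenopus laevis neuroectoderm, cut from embryos, joined in pairs by the inner faces and pinned to agarose. The labels give stage 11.5 NF, and the paper's methods give a range of stages for cutting that ends at 11.5. The paper's discussion says that the explants included marginal zone, so the values are not of neuroectoderm alone. In 3 samples the double explants were stretched within 3 h, and in 3 control samples they were pinned without stretching. By the paper's methods, lysis of both kinds of explant came after 3 h, so the RNA is from tissue older than at cutting. The labels call the 3 samples of each condition independent biological replicates.

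The only measurement of single genes used here is the authors' average log2 CPM over the samples of their fit. CPM is the read count of a gene scaled to the total of its library. Whether the log2 was taken before or after averaging, and whether a constant was added first, is not stated in the sources used here. The average is 1 value for each gene over stretched and control explants together, so it has no SD and no n. The levels of stretched and control explants cannot be told apart from it, and no difference between the conditions is given here. The fold changes and p-values of the same table are the authors' own comparison and were not used. The average is not divided by transcript length, so an order of values between genes is an order of read shares, not of transcript numbers. The depth behind each value is unknown, since the paper's methods give only a minimum of reads generated for a sample.

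Retinoic acid is a signal made from vitamin A. In the vertebrate gastrula it acts on the posterior hindbrain and trunk, while enzymes that break it down keep it low in other regions. It is made from retinol by way of retinal and is removed by enzymes of the Cyp26 family. Inside the cell it is carried by binding proteins to nuclear receptors, which sit on DNA together with retinoid X receptors and switch their target genes on when it binds.

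Read shares of the retinoic acid genes fell into a higher and a lower group. Of the 18 genes, 13 had an average log2 CPM between 2.66 (rara.L) and 7.32 (rarg.S). The other 5, namely both aldh1a3 homeologs, cyp26c1.L and both rarb homeologs, lay between -1.96 and -0.24. No retinoic acid gene stood between these ranges, and none was at the lowest value of the table, -2.08, which 12476 genes share (29.3% of all). An average above 0 was found for 13 of the 18 (72.2%), beside 44.4% of all genes, and the median was 3.48 for the retinoic acid genes, -0.86 over all genes and 1.62 over the 30073 genes above the lowest value. The 18 genes were chosen as components of 1 pathway, and these shares describe them without a test.

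**Figure D1:**
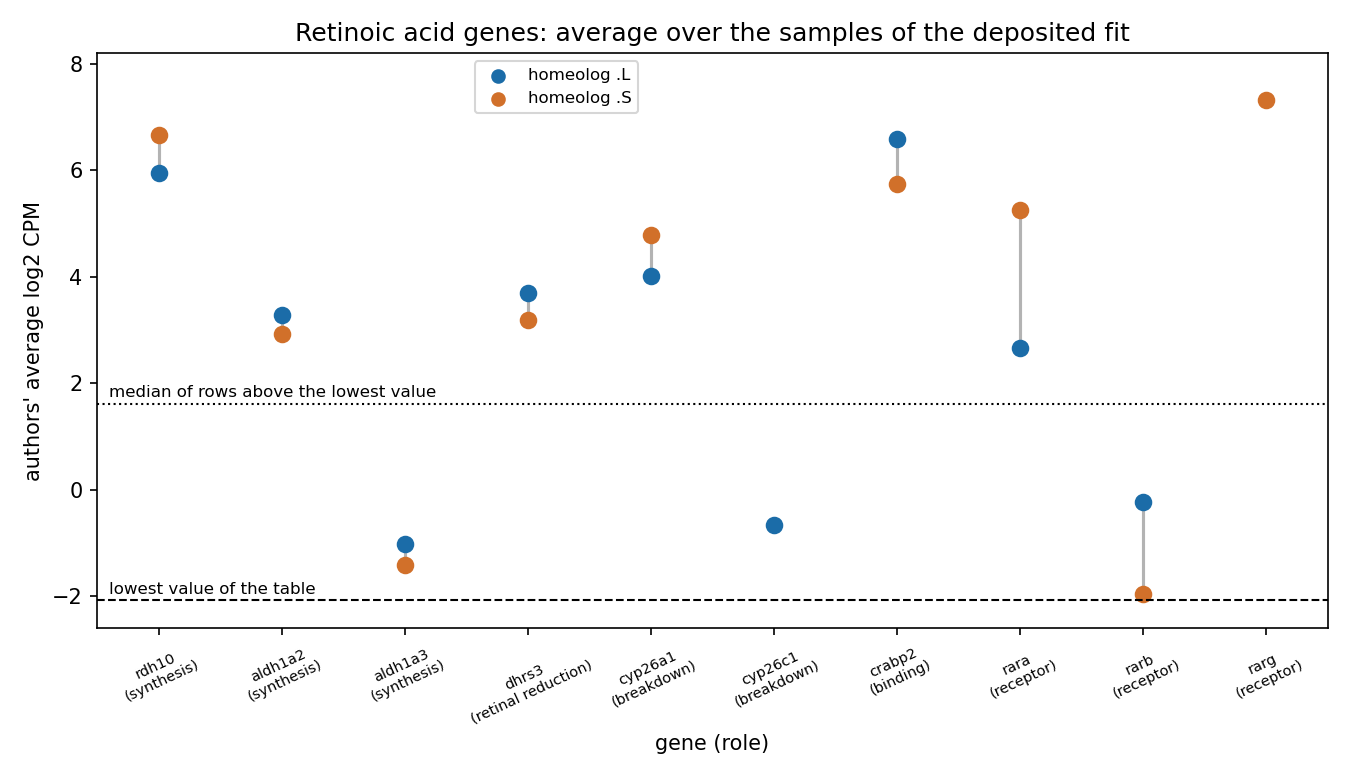
The authors' average log2 CPM (vertical axis) is plotted for each retinoic acid gene (horizontal axis, with its role), with .L homeologs in blue, .S homeologs in orange and a grey line joining a pair. Both aldh1a3 homeologs, cyp26c1.L and both rarb homeologs lie below 0, whereas the other 13 genes lie above the median of the genes over the lowest value (1.62, dotted). The dashed line is the lowest value of the table (-2.08), and no error bars can be drawn for a pooled average.

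Among the genes of retinoic acid synthesis, rdh10 took most of the reads. Rdh10 oxidises retinol to retinal, the first step of the route. The average log2 CPM was 5.94 for rdh10.L and 6.65 for rdh10.S, above 91.9% and 95.2% of all genes. The second step, from retinal to retinoic acid, belongs to aldehyde dehydrogenases, of which aldh1a2 is the main one of the early trunk in vertebrate embryos. aldh1a2.L had an average log2 CPM of 3.27 and aldh1a2.S of 2.92, above 74.7% and 72.5% of all genes. Ranked only over genes above 0, they were above 43.0% and 37.9%. aldh1a3, a related enzyme known from the eye and face of older embryos, had negative averages, with -1.02 for aldh1a3.L and -1.41 for aldh1a3.S, above 48.3% and 44.9% of all genes, a share that counts the genes at the lowest value. When the averages were turned back to CPM and summed over these 3 gene names, rdh10 held 89.9%, aldh1a2 9.58% and aldh1a3 0.482%. The lowest value of the table also turns back to a positive CPM. The small share of aldh1a3 can therefore be too high as a share of reads.

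Of the genes that lower the amount of retinoic acid, dhrs3 and cyp26a1 had read shares intermediate among the retinoic acid genes, and cyp26c1.L was low. Dhrs3 reduces retinal back to retinol and so works against Rdh10. Its homeologs had an average log2 CPM of 3.69 (dhrs3.L) and 3.19 (dhrs3.S). Cyp26a1 oxidises retinoic acid itself to inactive products, and its gene is known to be switched on by retinoic acid. cyp26a1.L had 4.01 and cyp26a1.S 4.78, above 79.6% and 84.9% of all genes. cyp26c1.L, for a second enzyme of the same family, had -0.66. In the RefSeq annotation of the Xenopus laevis v10.1 assembly, used here for names and neighbours only, cyp26c1.L is the protein-coding gene next to cyp26a1.L, so that adjacent genes of the same family stood at 4.01 and -0.66. The third family member, cyp26b1, from the wider pathway list, was also low, with -0.96 for cyp26b1.L and the lowest value of the table, -2.08, for cyp26b1.S.

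crabp2 encodes a small cytosolic protein that carries retinoic acid to its receptors. The average log2 CPM was 6.59 for crabp2.L and 5.74 for crabp2.S, above 94.9% and 90.9% of all genes. Reads of its relative crabp1, a binding protein linked with the breakdown of retinoic acid, were at the lowest value of the table in the 1 row analysed, crabp1.S (-2.08).

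The receptor genes spanned the whole range of the retinoic acid genes. rarg.S, for retinoic acid receptor gamma, had the highest average log2 CPM of all 18, with 7.32, and ranked 1139th of 42549 genes. rara.S, for receptor alpha, had 5.25, and its homeolog rara.L had 2.66. The receptor beta gene is a classic target of retinoic acid in mammals. rarb.L stood at -0.24 and rarb.S at -1.96, which was within 0.001 of the value of 2346 genes, counting rarb.S itself, and no gene lay between these and the lowest value. The value of rarb.S is therefore the smallest above the bottom that the table resolves at this tolerance. Of the summed CPM of the receptor rows, rarg.S alone held 77.8%, the rara pair 21.6% and the rarb pair 0.537%. These shares leave out rarg.L, and the small share of rarb can be too high as a share of reads, as for aldh1a3.

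**Figure D2:**
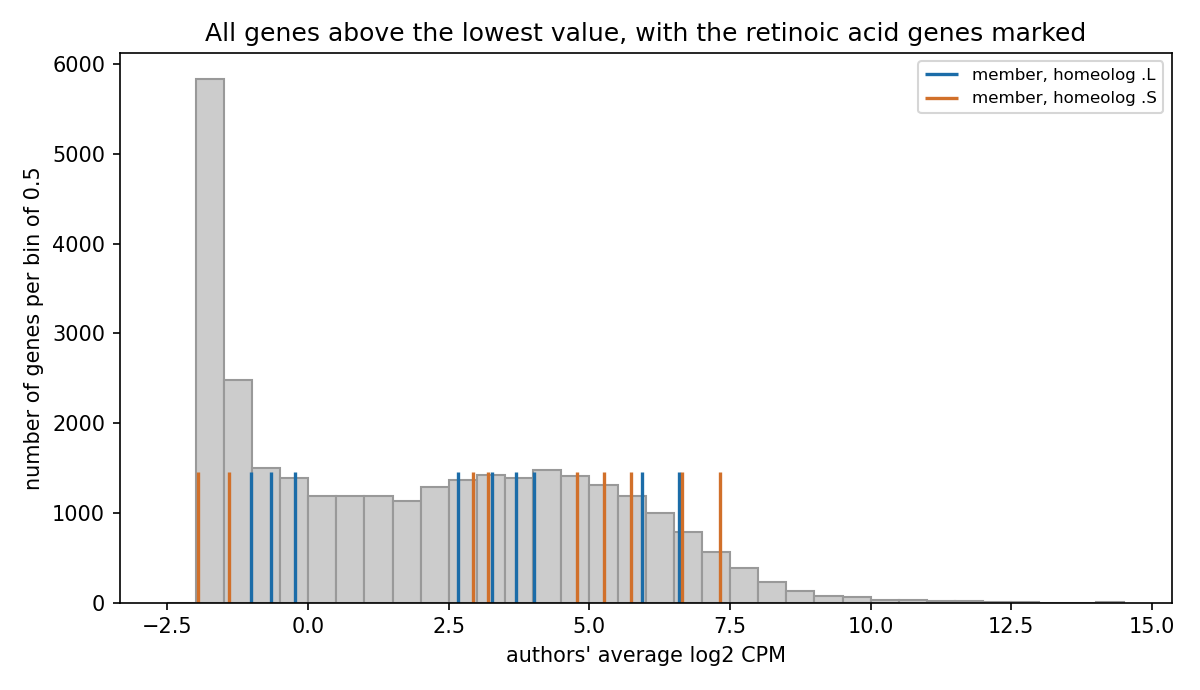
The grey bars count the 30073 genes above the lowest value of the table by their average log2 CPM (horizontal axis, bins of 0.5), and the coloured lines mark the 18 retinoic acid genes. The genes of the table pile up at the low end and spread broadly above 2, and the retinoic acid genes lie in both parts, 5 below 0 and 13 above 2.

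Xenopus laevis is an allotetraploid, so that most of these genes occur as a pair of homeologs on the long (L) and short (S) copies of a chromosome. Both homeologs had a row for 8 of the 10 gene names. The .L homeolog was higher for aldh1a2, aldh1a3, dhrs3, crabp2 and rarb, and the .S homeolog for rdh10, cyp26a1 and rara. In 6 of the 8 pairs the homeologs were within 1 on the log2 scale of the average log2 CPM. Of the 6666 pairs of the table with both homeologs above the lowest value, 52.0% were apart by over 1. The difference of .L minus .S was 0.35 for aldh1a2, 0.39 for aldh1a3, 0.51 for dhrs3 and 0.85 for crabp2. It was -0.71 for rdh10 and -0.77 for cyp26a1. The other 2 pairs were those of receptors. rarb.L was above rarb.S by 1.73, both of them low. As rarb.S lay 0.116 above the lowest value of the table, that value bounds the difference of this pair. The aldh1a3 pair, also low, has the same limit. rara.L was below rara.S, with a difference of -2.59, so that 14.2% of the CPM of the rara pair came from rara.L.

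Over the 6666 pairs of the table with both homeologs above the lowest value, the median absolute difference was 1.06, with quartiles of 0.44 and 2.10, and .L was higher in 56.3%. The median over the 8 retinoic acid pairs was 0.74. Both medians include low pairs, whose differences the lowest value bounds. The absolute difference of the rara pair was larger than that of 82.6% of all pairs, and that of the aldh1a2 pair was larger than that of 20.3%. How reads common to a pair were assigned is unknown, and homeologs can differ in annotated length, so the split within a pair is uncertain. No spread between samples is available to judge whether any of these differences exceeds it.

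**Figure D3:**
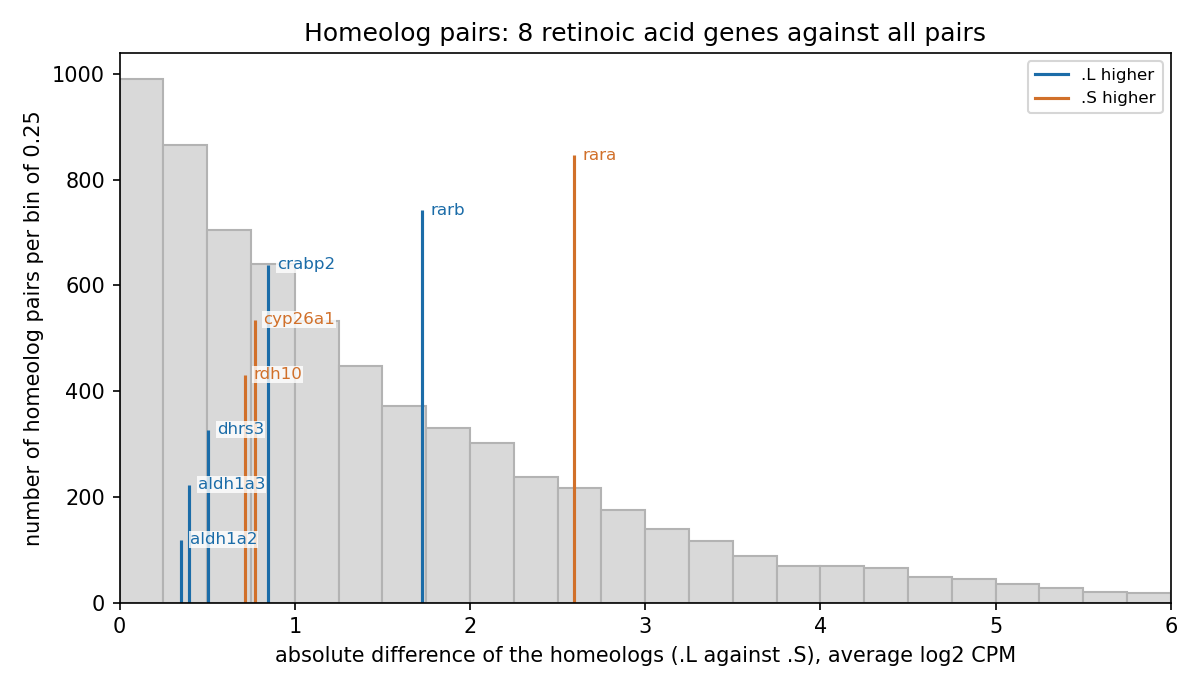
The grey bars count homeolog pairs by the absolute difference of .L and .S in average log2 CPM (horizontal axis, bins of 0.25) for the 6666 pairs with both homeologs above the lowest value, of which 111 with a difference above 6 are not drawn. The coloured lines mark the 8 retinoic acid pairs, blue where .L is higher and orange where .S is higher, with heights that only separate the labels. All pairs except rarb (1.73) and rara (.L minus .S of -2.59) lie below 1.

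Of 57 other genes of the pathway, 54 had at least 1 row, with 86 rows in all. Of these rows, 51 had an average log2 CPM above 0, beside 44.4% of all genes. The counts for single groups below stand beside the same share and were not tested. The retinoid X receptors, which pair with the retinoic acid receptors on DNA, were above 0 in 5 of 5 rows. rxrb had the highest read share of them, with 6.84 for rxrb.L and 6.33 for rxrb.S, followed by rxra.S (2.99), rxrg.L (2.01) and rxra.L (1.46). Corepressors and coactivators were above 0 in 18 of 19 rows. They included the corepressor ncor1, with 5.90 for ncor1.L and 5.72 for ncor1.S, and the histone acetyltransferase ep300, with 7.80 for ep300.L. The exception was the acetyltransferase row kat2b.S (-0.38). Among orphan receptors, 7 of 11 rows were above 0, and the germ cell nuclear factor gene nr6a1 had the highest, with 5.65 for nr6a1.L.

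Other enzymes of retinol and retinal were mostly low. Of 14 rows, 4 were above 0, namely rdh14.L (4.24), rdh7.L (2.95), dhrs4.L (2.77) and rdh13.L (0.34). The third retinal dehydrogenase, aldh1a1, had -1.58 for aldh1a1.L and -1.08 for aldh1a1.S. Of 10 rows for vitamin A uptake and storage, 5 were above 0, near the share of all genes (44.4%). The retinol-esterifying enzyme lrat.L had 3.29. The retinol transporter stra6.L had 2.51, whereas its homeolog stra6.S had -1.96. rpe65.S, for an isomerase of the visual cycle in the eye, had 5.98, and rpe65.L had -0.08.

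Genes known as targets of retinoic acid or as genes patterned by it were above 0 in 12 of 24 rows, near the share of all genes (44.4%). Of their 10 hox rows, 6 were below 0, between -2.08 and -0.27, which is also near what the share of all genes gives. The hox gene hoxd1 had the highest of the 10, with an average log2 CPM of 3.99 (hoxd1.L) and 3.15 (hoxd1.S). The hindbrain regulator meis3 had 4.22 (meis3.L) and 4.19 (meis3.S). cdx1.S, for a posterior homeobox gene, had 5.17, whereas its homeolog cdx1.L had 1.07. The repressor znf703 had 5.19 (znf703.L) and 5.54 (znf703.S). Both rows of pdx1, a pancreas gene, were at the lowest value of the table.

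The labelled tissue, neuroectoderm, was set beside marker genes of several tissues. Epidermis markers had a higher median than neural ectoderm markers, so the markers do not show neuroectoderm alone. All 13 rows of neural ectoderm markers were above 0 (1.39 to 8.07), as were all 8 rows of epidermis markers (5.06 to 9.89). Mesoderm markers ranged from -0.20 to 6.79 over 7 rows, with tbxt.S highest. After tbxt.S and tbxt.L (5.84), the next mesoderm row was wnt8a.L (2.64). Organizer and prechordal markers ranged from -0.81 to 2.08 over 7 rows, and endoderm markers from -0.96 to 6.78 over 9 rows. The highest endoderm row was a2m.S, and the next was gata6.S (1.19). Rows above 0 numbered 6 of 7 for mesoderm, 5 of 7 for organizer and prechordal and 7 of 9 for endoderm markers. The median average log2 CPM was 8.33 for epidermis, 5.92 for neural ectoderm, 1.69 for organizer and prechordal, 1.25 for mesoderm and 0.55 for endoderm markers, as read shares. In a bulk sample, a low average cannot be told apart into few cells with a gene or little RNA in each cell, and the part of these tissues in the values of the retinoic acid genes was not tested.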

How the data were processed

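Poly(A) RNA of 3 control and 3 stretched samples was sequenced by the authors. The paper's methods name STAR for mapping and DESeq2 for fold changes, whereas the submitters' processing notes list TopHat2, HTSeq, DESeq and edgeR, without versions. For the genome build and annotation, no name was given in the sources used here. The authors deposited 1 table with no values per sample. Its average log2 CPM, deposited on the log2 scale, was the only value column used. The other 4 value columns (fold change, F, p-value and FDR) hold the authors' own comparison and were not used, so the planned test of stretched against control explants was not fitted.

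For each gene, the percentage of genes with a lower value was counted over all rows, over rows above the lowest value and over rows above 0 (Python 3.11.15, pandas 2.3.3, numpy 2.4.6). Rows within 1e-06 of the minimum counted as lowest. CPM sums are sums of the back-transformed averages, from which the lowest value of the table was not subtracted. Homeologs were paired by name, leaving out 1 name that occurs in 2 rows. The counting of percentages and pairs was tested on simulated data. Of all rows, 39961 (93.9%) match a symbol of the RefSeq table of Xenopus laevis v10.1, including all 18 retinoic acid genes. All members with a row were described, as fixed by the rule for named genes. The members and the pathway and marker lists were chosen with earlier results of these data known, and genes named from these lists were picked after their values were seen. Some genes of the lists are counted but not reported by name here. Positions of that table served only to find neighbouring genes. Sequences and transcript lengths were not used here, so levels per length and promoter motifs were not computed.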

Additional observations from a re-analysis of the deposited data

How the results depend on the processing

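The place of the retinoic acid genes among all genes depended on which genes were ranked. Of the 18 genes, 15 were above the median of all rows, 13 above the median of rows over the lowest value, and 8 above the median of rows with an average log2 CPM over 0, since the last sets leave out low genes by construction. The .L homeolog was higher in 5 of the 8 pairs, and in 3 of the 6 pairs with both homeologs above 0. Scaling by coding length, other motif definitions, another normalization, a filter on counts and leaving out each replicate were not run, because neither values per sample nor sequences were used here. No paired analysis was possible because the value column used carries no replicate. The depth behind each value is unknown beyond the minimum of generated reads in the paper's methods, so no interval is given, and values near -2.08 rest on few reads.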
